A study of Mus musculus with 9 samples.

Results

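Mouse embryonic stem cells (ESCs) kept in serum with LIF were compared after 24 h of doxycycline (dox) and without dox, and the difference was described for every gene by function and by expression level. The comparison takes the 3 libraries at 24 h and the 3 at 0 h, which are 6 of the 9 RNA-seq libraries of the series, and the members are all 47729 genes of the FPKM table, of which 17951 had a mean of at least 0.1 FPKM and were tested. FPKM are fragment counts divided by gene length and library size. The 3 remaining libraries, at 18 h, entered the fit to help estimate the spread and are quoted only where they bear on a 24 h value. All cells, the 0 h cells included, carried a dox-inducible cassette that encodes FLAG-tagged E47 joined by a flexible linker to a second E47, which is a forced homodimer of this splice form of E2A. The cassette was introduced by inducible cassette exchange, a method that places it upstream of Hprt on the X chromosome, and dox was given at 1 µg/ml. Each time point had 3 biological replicates. The treatment protocol label gives other durations than the sample titles and the table headers, and the 24 h used here is that of the titles and headers. The 0 h cells received no dox, and dox-treated cells without the homodimer were not analysed here, so the homodimer, dox itself and the time in culture cannot be told apart.

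E2A, encoded by Tcf3, is an E protein, a basic helix-loop-helix (bHLH) transcription factor that binds as a dimer to E-box DNA of the form CANNTG. E proteins pair with tissue-specific bHLH partners such as the proneural factors, and the Id proteins, which lack the DNA-binding part, bind E proteins and keep them off DNA. In serum and LIF, ESCs hold a network of pluripotency factors while BMP signalling keeps Id genes expressed.

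Tcf3 itself (chr10:80409514-80433647, minus strand, GRCm38) was at 41.2, 37.7 and 38.5 FPKM in the 0 h libraries and 104, 93.6 and 108 FPKM at 24 h. The groups did not overlap, and the log2 fold-change on the FPKM + 0.1 scale was 1.38 ± 0.049 (s.e.) with an adjusted p of 3.2e-05 by limma. Reads from the cassette can be counted on Tcf3, so this value does not separate the transgene from the endogenous gene. The label ESC was checked against 8 markers, and each was expressed in each library. Pou5f1 lay at 433, 336 and 346 FPKM at 0 h and 286, 226 and 231 FPKM at 24 h. Sox2 had a mean of 88.9 FPKM at 0 h and 87.8 FPKM at 24 h, and Sall4 28.8 and 31.2 FPKM. Markers of other cell types were low for fibroblasts and primitive endoderm, while those of trophectoderm, described with that list, were higher at 24 h. The summed level of 9 fibroblast markers was 7.8 to 15.8 FPKM at 0 h and 8.14 to 13 FPKM at 24 h, and that of 8 primitive endoderm markers was 7.61 to 8.68 FPKM and 9.09 to 10.3 FPKM. The 7 markers of 2-cell-like cells in the table summed to at most 0.775 FPKM in a library. Libraries held 22028363 to 26471569 reads on genes, and the 10 most abundant genes took 4.63% to 5.40% of them. The second replicate at 0 h stood apart from the other 0 h replicates in genes of amino acid supply, which were lower there, and the effect of leaving it out is given with those lists. Its difference was not confined to them, as the same library was the highest at 0 h for Id1, Id2, Id3, Cldn5 and mt-Rnr2.

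Across the 17951 genes tested, 420 were upregulated at 24 h, meaning an adjusted p of at most 0.05 and a log2 fold-change of at least 1, and 210 were downregulated. These are 2.34% and 1.17% of the genes tested. Of the 420 upregulated genes, 403 had each 24 h library above each 0 h library, and 191 of the 210 downregulated genes had the reverse. The call itself favours genes whose groups do not overlap, so these counts only describe the called genes. The share over all genes tested is not given here. Without a minimum fold, 2434 genes rose (13.6%) and 2243 fell (12.5%), so that 4047 of these 4677 genes changed by less than 2-fold. The median absolute log2 fold-change of the 4677 was 0.40. These smaller changes rest on the pairing of replicates: without the replicate block 1171 genes rose and 917 fell, while 371 were upregulated and 150 downregulated, all of them also called with the block. With only the 6 libraries at 0 h and 24 h in the fit, 1258 rose and 1195 fell. With FPKM rescaled to total reads 3197 rose and 1622 fell. Leaving out 1 library at 24 h gave 1246 to 1421 rising and 1188 to 1229 falling genes, and leaving out all libraries of replicate 1 gave 605 and 558. The median log2 fold-change of all genes tested was 0.004. Protein-coding genes made up 330 of the upregulated and 121 of the downregulated genes, of 14071 tested. Because the libraries are of whole cultures, fewer cells that express a gene and less of its RNA per cell cannot be told apart.

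**Figure D1:**
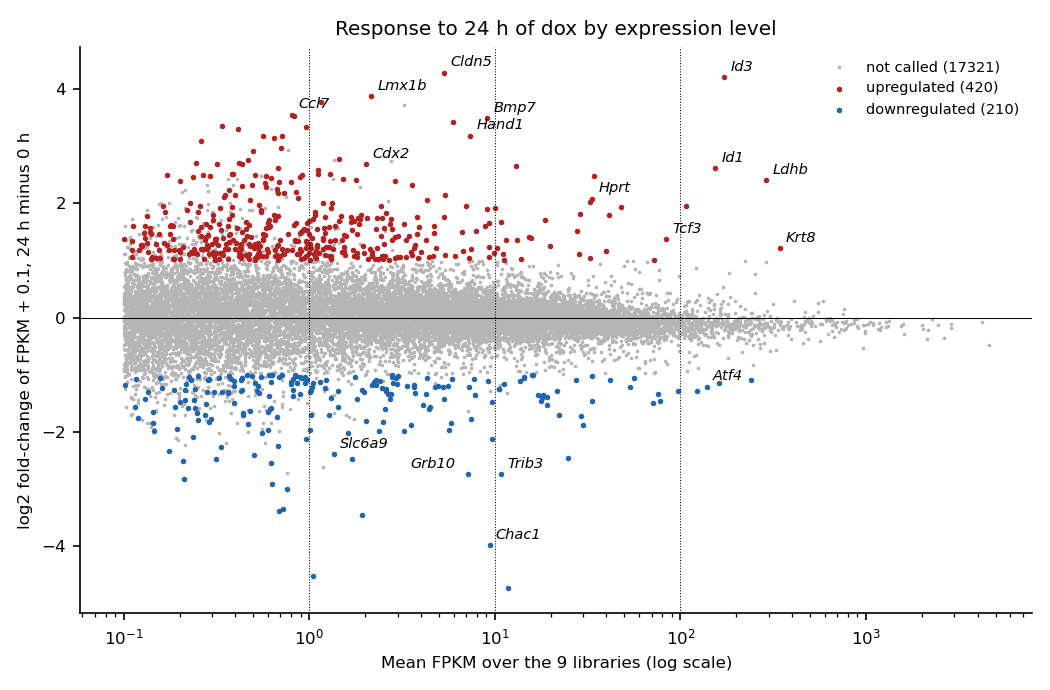
Each point is a tested gene, with its mean FPKM over the 9 libraries on a log axis and its log2 fold-change from 0 h to 24 h on the vertical axis; red points are the 420 upregulated genes, blue points the 210 downregulated genes and grey points the rest. Dotted lines mark 1, 10 and 100 FPKM, and the cloud narrows from left to right while Id3, Id1, Ldhb and Krt8 stand out above it at the right.

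The response differed in make-up between expression levels. The filter and the bands use the mean of all 9 libraries, of which only 3 were without dox. A weak gene that came on therefore passes the filter more easily than one that went off. This favours upregulated genes in the lowest band, by an amount that was not tested. Among the 6058 genes with a mean of 0.1 to 1 FPKM, 244 were upregulated (4.03%) and 103 downregulated (1.70%). The 103 became 59 to 64 without a single 24 h library, 67 without the first 0 h library and 60 without the block. Without all libraries of replicate 1, 2 or 3, the upregulated genes of this band numbered 102, 158 and 107. The downregulated ones then numbered 31, 62 and 41. Among the 6635 genes at 1 to 10 FPKM the counts were 146 (2.20%) and 72 (1.09%), and among the 4754 genes at 10 to 100 FPKM they were 25 (0.526%) and 31 (0.652%). The balance at 10 to 100 FPKM moved with the setting, with 25 and 20 among genes of at least 200 bases of exon, 30 and 27 with FPKM rescaled to total reads, 27 and 27 after quantile normalization, 23 and 19 without replicate 1 and 27 and 21 without replicate 3. Of the 504 genes at 100 FPKM or more, 5 were upregulated (0.992%), namely Id1, Id2, Id3, Ldhb and Krt8, and 4 were downregulated (0.794%), namely Atf4, Psat1, Nars and mt-Rnr2. A gene can enter a band through its own rise, as the dox libraries are part of the mean. Of the 5, only Krt8 was above 100 FPKM in each 0 h library, and Id1, Id2, Id3 and Ldhb were at 11.6 to 88.9 FPKM there. In this band 8 were upregulated without the second 0 h library, and the number downregulated was 1 without replicate 1 and 0 without replicate 3. With a pseudocount of 1 FPKM in place of 0.1, which shrinks the fold-changes of low genes, 7 and 4 genes were called at 0.1 to 1 FPKM and 56 and 37 at 1 to 10 FPKM. The precision differed as well, with a median standard error of 0.284 in the lowest band, 0.0946 and 0.054 in the middle bands and 0.0456 in the highest. Counts by band therefore compare genes that were measured with unequal error, and a change of a given size was easier to detect in the higher bands.

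With no minimum fold the balance between rising and falling genes turned over with level. In the band of 1 to 10 FPKM 1337 genes rose (20.2%) and 724 fell (10.9%), and without a single 24 h library 684 to 751 rose and 358 to 383 fell. At 100 FPKM or more 35 rose (6.94%) and 203 fell (40.3%). The 203 became 97, 106 and 132 without the third, second and first 24 h library, 124 without the third 0 h library and 40 without all libraries of replicate 3, and the 35 became 23 without the first or the third 24 h library. In between, at 10 to 100 FPKM, 630 rose (13.3%) and 1103 fell (23.2%), a balance that turned with FPKM rescaled to total reads (949 and 771) and after quantile normalization (848 and 773). The median log2 fold-change was 0.06 at 1 to 10 FPKM, -0.05 at 10 to 100 FPKM and -0.12 at 100 FPKM or more. In the highest band it was -0.06, -0.17 and -0.14 for replicates 1, 2 and 3 taken as pairs. This drift of the highly expressed genes depended on scaling: its median was -0.07 when FPKM were rescaled to the total reads and -0.0007 after quantile normalization, which forces equal distributions and left 77 genes of the band falling and 80 rising. Without the replicate block 80 fell and 18 rose. With only the 6 libraries at 0 h and 24 h in the fit, 94 fell and 25 rose. With no trend of variance with level, 107 fell and 23 rose. The fit of 6 libraries gave 604 falling and 339 rising genes at 10 to 100 FPKM. At 1 to 10 FPKM it gave 390 falling and 678 rising. Ribosomal protein and mitochondrial genes were 91 of the 504, and the other 413 genes had the same median of -0.12, with 163 falling (39.5%).

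**Figure D2:**
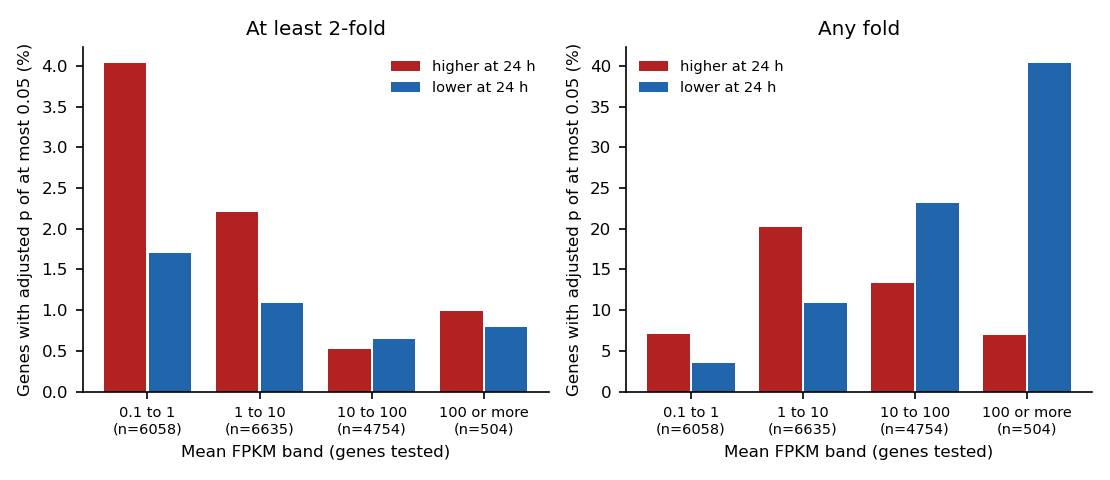
Bars give the percentage of tested genes in each band of mean FPKM that were higher (red) or lower (blue) at 24 h with an adjusted p of at most 0.05, on the left with at least a 2-fold change and on the right at any fold. The left panel falls from 4.03% upregulated in the lowest band to 0.526% at 10 to 100 FPKM, and on the right the share lower at 24 h climbs from 3.52% to 40.3%.

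The 43 function lists used below hold pathway members, lineage factors and housekeeping functions, and a list is described by how many of its tested members passed the test and by its median log2 fold-change, to be read beside 2.34% upregulated, 1.17% downregulated and a median of 0.004 for all genes tested. Counts at any fold are to be read beside 13.6% rising and 12.5% falling among all genes tested, and for highly expressed lists beside the 40.3% falling at 100 FPKM or more. For members at 1 to 10 FPKM the shares to compare are 20.2% rising and 10.9% falling. At 0.1 to 1 FPKM they are 4.03% upregulated and 1.70% downregulated. These shares moved with the libraries and the fit, as given above. The list counts move with the libraries too: leaving out a single library moved the number rising by over 1.5 times in 15 of 37 lists with at least 1 such gene and the number falling in 20 of 35, against 9 of 26 for the number upregulated and 3 of 10 for the number downregulated.

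**Figure D3:**
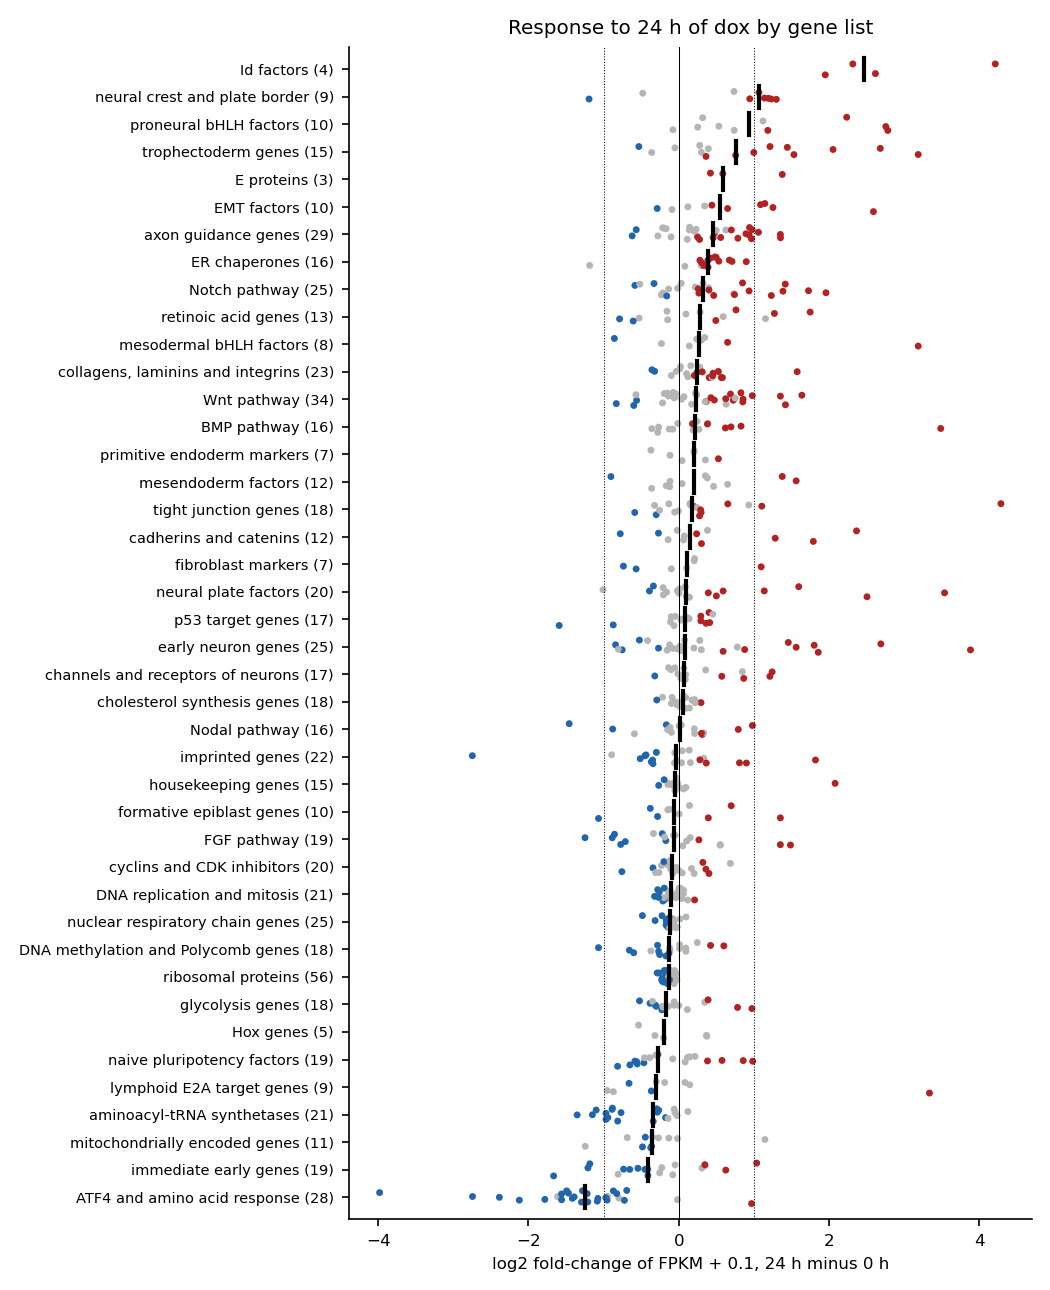
Rows are the function lists with at least 3 tested members (number in parentheses), points are their genes by log2 fold-change from 0 h to 24 h, and black bars are list medians; red points rose and blue points fell with an adjusted p of at most 0.05, grey points did not pass, and dotted lines mark a 2-fold change. The Id factors lie highest with a median of 2.47 and the ATF4 and amino acid genes lowest with a median of -1.25.

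The Id genes, inhibitors of E proteins, were upregulated, all 4 of them. Id3 (chr4:136143497-136145755) went from 11.6, 18.8 and 11.9 FPKM at 0 h to 247, 241 and 284 FPKM at 24 h, a log2 fold-change of 4.21 ± 0.17 (adjusted p = 4.42e-05). Id1 (chr2:152736251-152737410) was at 33.5, 48.8 and 25.2 FPKM and then at 211, 195 and 233 FPKM (2.62 ± 0.20, adjusted p = 0.000541). For Id2 (chr12:25093799-25097140) the values were 38.9, 49.4 and 27.8 FPKM and 140.0, 149 and 149 FPKM (1.95 ± 0.15). Id4, the least expressed, was at 1.24, 1.2 and 0.61 FPKM and 5.43, 5.81 and 4.58 FPKM (2.32 ± 0.20), and it overlaps annotated transcripts of the opposite strand. The kit marks strand, but whether reads were counted by strand is not given in the sources used here, so overlapping genes are uncertain. In each case the lowest 24 h library lay above the highest 0 h library. The 4 genes took 0.0191% to 0.0340% of all FPKM in the 0 h libraries and 0.179% to 0.205% at 24 h. Among the other E proteins, Tcf12 rose by a log2 fold-change of 0.59 ± 0.072, with 2.83, 3.32 and 3.46 FPKM at 0 h and 4.45, 5.44 and 4.68 FPKM at 24 h. Tcf4 rose by 0.42 ± 0.088 (adjusted p = 0.0142, and 0.0553 without the replicate block).

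Notch signalling passes between neighbouring cells when a Delta or Jagged ligand binds a Notch receptor, whose cleaved domain then acts with Rbpj on Hes and Hey genes. Of 25 tested members of the list, 5 were upregulated, 12 rose at any fold and 3 fell (median 0.32), and without the replicate block 8 rose and 1 fell. The 5 upregulated genes were the Delta ligands Dll1, Dll3 and Dll4, the glycosyltransferase Lfng, which modifies Notch, and the Hes family member Hes6. Dll3 was at 3.24, 2.22 and 2.1 FPKM at 0 h and 11.6, 9.94 and 8.39 FPKM at 24 h (1.96 ± 0.079, adjusted p = 4.42e-05). Dll1 was at 1.15, 1.27 and 0.861 FPKM and 4.57, 3.71 and 3.27 FPKM (1.73 ± 0.11). A930024N18Rik overlaps it on the opposite strand. Dll4 stayed low, at 0.0762, 0.0865 and 0.0597 FPKM and 0.45, 0.326 and 0.191 FPKM (1.23 ± 0.25). The Jagged ligands behaved otherwise, as Jag1 had a log2 fold-change of -0.02 (adjusted p = 0.908) and Jag2 fell by 0.33, from 16.4, 14.6 and 17 FPKM to 13, 12.5 and 12.7 FPKM. Lfng was at 6.66, 8.38 and 6.44 FPKM and 18.6, 19.8 and 19.1 FPKM (1.42 ± 0.072), whereas the related Mfng had a log2 fold-change of -0.13 (adjusted p = 0.354). The receptors Notch1 and Notch2 rose by 0.47 and 0.74, and Hes1, a target of the pathway, rose by 0.85 ± 0.077, with 5.17, 5.44 and 5.17 FPKM at 0 h and 9.43, 8.85 and 10.4 FPKM at 24 h. Hes5, the other common readout, was at or below 0.403 FPKM in each of these libraries and did not pass the test (adjusted p = 0.0939). Hes6 was at 7.58, 7.95 and 6.74 FPKM and 24.7, 18.5 and 16.3 FPKM (1.39 ± 0.10), so its lowest 24 h value was more than its highest 0 h value.

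E-box words were counted in the promoters of the genes tested, taken from RefSeq as 250 bases before to 50 bases after the start of each gene (GRCm38.p6), for 11145 genes that could be matched. Where RefSeq lists several starts for a gene, the one nearest the start in the study's annotation was used, and the other starts of Dll1 and Hes6 were not used. The words CAGGTG and CAGCTG, read on both strands, are CANNTG E-boxes that E proteins are known to bind. CAGGTG was present in 18.7% of all these promoters, in 23.3% of the 258 matched upregulated genes and in 25% of the 108 downregulated genes. CAGCTG was present in 15.2%, 24.8% and 19.4%. Both words were also more frequent in promoters of weakly expressed genes, with CAGGTG in 23.2% of the 0.1 to 1 FPKM band and 12.6% of the band of 100 FPKM or more, so a level difference between groups moves these shares. Band by band the difference was uneven. At 0.1 to 1 FPKM, where 129 of the 258 upregulated promoters lie, CAGGTG was in 22.5% of the upregulated and 23.2% of all promoters, and CAGCTG in 22.5% and 19.1%. At 1 to 10 FPKM CAGGTG was in 26.2% and 19.1%, and CAGCTG in 24.3% and 16%. At 10 to 100 FPKM, with 22 upregulated promoters, CAGGTG was in 13.6% and 15.5%, and CAGCTG in 36.4% and 11.9%. Any CANNTG was found in 63.5% of all promoters, 65.9% of the upregulated and 75.9% of the downregulated ones. Of 21 Notch list members with a promoter, 7 held CAGGTG and 7 held CAGCTG (33.3% each), and Dll1, Dll3 and Hes6 held both. Of the 3 Id promoters in the table, Id2 held CAGCTG, and those of Id3 and Id4 held no CANNTG. The stretches around the words in Dll1 and Hes6 are shown because these genes were upregulated and carry both words, which are in capitals with 20 bases on either side, CACCTG being CAGGTG read on the other strand. The Dll1 words start 155 and 132 bases before the RefSeq gene start in chr17:15377039-15377107 (minus strand), a place that an exon of A930024N18Rik covers on the opposite strand. Those of Hes6 start 220 and 171 bases before it in chr1:91414184-91414278 (minus strand). A word in the sequence is a description and not a bound site.
Dll1: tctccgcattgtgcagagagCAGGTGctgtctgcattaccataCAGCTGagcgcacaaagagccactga
Hes6: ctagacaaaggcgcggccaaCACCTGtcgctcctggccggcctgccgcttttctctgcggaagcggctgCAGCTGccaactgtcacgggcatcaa

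BMP and Nodal ligands belong to the TGFβ family and act through receptors that phosphorylate Smad proteins. Bmp7 (chr2:172868012-172940321) had the lowest adjusted p among the genes named here, with 1.02, 1.04 and 1.42 FPKM at 0 h and 11.9, 12.5 and 17.9 FPKM at 24 h (3.49 ± 0.055, adjusted p = 8.47e-07). It was the 1 upregulated gene of 16 tested in the BMP list, in which 6 rose and none fell (median 0.22), with 4 rising without the block and 3 without the first or the third 24 h library. Bmp4, the ligand best known in ESCs, was at 2.9, 3 and 2.96 FPKM and 2.11, 1.69 and 3.32 FPKM and did not pass (adjusted p = 0.158). Smad5, which carries the BMP signal, rose by 0.62 ± 0.057, and the inhibitory Smad6 by 0.69 ± 0.17. Chrd, a secreted BMP antagonist, rose by 0.83 ± 0.17 from a mean of 0.459 to 0.887 FPKM. In the Nodal list 1 of 16 members was downregulated, 4 rose and 3 fell (median 0.02). That member was the co-receptor Tdgf1, at 144, 126 and 121 FPKM at 0 h and 52.5, 44.9 and 44.9 FPKM at 24 h (-1.46 ± 0.036, adjusted p = 6.24e-06). The related inhibitors Lefty1 and Lefty2 moved in opposite directions. Lefty1 was at 43.8, 49.6 and 42.4 FPKM and 104, 68.9 and 66.8 FPKM (0.79 ± 0.13), and Lefty2 at 14.5, 12 and 10.4 FPKM and 8.32, 6.47 and 5.26 FPKM (-0.88 ± 0.067). Nodal itself was at 23, 24 and 21 FPKM and 20.9, 18.4 and 22.1 FPKM (adjusted p = 0.229). Smad3 rose by 0.98 ± 0.12 and Smad2 by 0.30 ± 0.049.

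Wnt ligands signal through Frizzled receptors and β-catenin. In this list 3 of 34 tested genes were upregulated, 13 rose and 3 fell (median 0.23), and without the replicate block 5 rose and 3 fell. Without the second 0 h library 5 were upregulated. The upregulated genes were ligands: Wnt3 (0.532, 1.57 and 1.5 FPKM at 0 h and 2.02, 3.99 and 5.75 FPKM at 24 h, 1.64 ± 0.14, adjusted p = 0.000646 and 0.0761 without the block), Wnt5a (1.42 ± 0.17) and Wnt10a (1.35 ± 0.21). Axin2, a target that feeds back on the pathway, was at 2.03, 2.38 and 2.1 FPKM and 2.96, 3.42 and 4.41 FPKM (0.69 ± 0.13), and Lef1 rose by 0.43 ± 0.089. Wnt7a, Fzd5 and Sfrp2 fell, by 0.83, 0.56 and 0.60.

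FGF signalling through Erk drives ESCs out of self-renewal. Of 19 list members 3 rose and 7 fell (median -0.07). The ligand Fgf4 was downregulated, with 22.4, 13 and 14.9 FPKM at 0 h and 9.25, 5.94 and 5.75 FPKM at 24 h (-1.25 ± 0.069, adjusted p = 0.000166), while the epiblast ligand Fgf5 was upregulated (1.35 ± 0.15). Fgfr2, a receptor, was at 2.27, 1.89 and 2.1 FPKM and 6.9, 5.35 and 5.89 FPKM (1.49 ± 0.061). Among the genes that report Erk activity, Etv4 was at 34.7, 37.9 and 33.8 FPKM and 19.9, 20.2 and 18.5 FPKM (-0.86 ± 0.039), and Dusp4 at 29, 31.2 and 32.4 FPKM and 17.2, 18.9 and 18.1 FPKM (-0.77 ± 0.042). Spry2 fell by 0.22 and Etv5 by 0.17 (adjusted p = 0.0189, and 0.504 without the block). The immediate early genes, which respond to growth factor signals within minutes, also had more members down than up: of 19, 3 were downregulated and 9 fell, against 1 upregulated and 3 that rose (median -0.41). When libraries were left out, 1 to 4 were downregulated and 3 to 10 fell, with the lowest counts without all libraries of replicate 1, and 0 or 1 was upregulated and 1 to 3 rose. Egr1 was at 9.28, 14.4 and 9.69 FPKM and 4.11, 5.05 and 4.9 FPKM (-1.21 ± 0.12), Fos fell by 1.18 ± 0.23 and Fosb by 1.66 ± 0.24. Btg2, an antiproliferative gene on the same list, was upregulated, with 16.6, 16.5 and 25.6 FPKM and 36.3, 38.3 and 44.1 FPKM (1.04 ± 0.10), and Myc fell by 0.65 ± 0.049. In the retinoic acid list 2 of 13 genes were upregulated, 4 rose and 2 fell (median 0.28), and without the block 1 was upregulated, 2 rose and 2 fell. The 2 were enzymes that make retinoic acid, Aldh1a1 (1.27 ± 0.23, adjusted p = 0.168 without the block) and Aldh1a2, and the latter was at 0.574, 0.791 and 0.691 FPKM and 2.61, 2.53 and 2.43 FPKM (1.75 ± 0.14), whereas the receptors Rara and Rarg fell by 0.61 and 0.79.

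The neural factors that were upregulated came from low levels. Of 10 tested proneural bHLH factors, 4 were upregulated and none fell (median 0.93), the other 7 on the list being below the level tested. With any single library left out 3 were upregulated, and without all libraries of replicate 2 the number was 2. Besides Neurog3 and Neurod4 these were Atoh8, at 0.0836, 0 and 0.055 FPKM at 0 h and 0.722, 0.438 and 0.571 FPKM at 24 h (2.23 ± 0.25), and Nhlh1 (1.19 ± 0.32, adjusted p = 0.035). Of 20 neural plate factors, 4 were upregulated, 7 rose and 2 fell (median 0.09), with 4 rising and 1 falling without the block and 2 upregulated without replicate 1 or replicate 3. Besides Sox1 and Foxd4 the upregulated ones were the homeobox genes Lhx2 (0.0286, 0.0759 and 0.0209 FPKM and 0.403, 0.339 and 0.242 FPKM, 1.60 ± 0.25) and Irx3 (0.514, 0.734 and 0.775 FPKM and 1.51, 1.34 and 1.97 FPKM, 1.14 ± 0.19). Among the better expressed members Otx2, at 11.7 FPKM at 0 h, had a log2 fold-change of 0.14 (adjusted p = 0.154) and Sox11 fell by 0.39.

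Of 25 tested early neuron genes 6 were upregulated, 8 rose and 4 fell (median 0.08) (1 falling without the block), and without all libraries of replicate 1 the number upregulated was 2. The upregulated genes included the transcription factors Lmx1b, Ebf2, Lhx1 and Isl1, and Cplx2, a regulator of vesicle release. Lmx1b was at 0.129, 0.196 and 0.151 FPKM and 2.93, 3.62 and 4.73 FPKM (3.88 ± 0.15), with a transcript annotated on the opposite strand, and Cplx2 at 0.442, 0.271 and 0.672 FPKM and 2.13, 1.65 and 1.58 FPKM (1.80 ± 0.22). Of the structural genes of neurons, Tubb3 was at 48.8, 36.3 and 39.5 FPKM and 80.0, 54.4 and 55 FPKM (0.59 ± 0.051, adjusted p = 0.000739 and 0.0638 without the block). Nefl fell by 0.84 ± 0.12, from 11.1, 16 and 11.5 FPKM to 5.78, 7.48 and 8.06 FPKM, Gap43 fell by 0.52 ± 0.049 (adjusted p = 0.0798 without the block) and Map2 did not pass (0.30, adjusted p = 0.1). Among 17 channels and receptors of neurons, 2 were upregulated, Cacna1g (1.24 ± 0.14) and Chrna4 (1.21 ± 0.24), while 12 did not pass (median 0.07, and -0.0178 after quantile normalization). Of 29 axon guidance genes 3 were upregulated, 15 rose and 2 fell (median 0.46), and without the block 9 rose and 1 fell. Those upregulated were Plxnd1 (0.505, 0.702 and 0.731 FPKM and 1.65, 1.96 and 1.76 FPKM, 1.35 ± 0.14), Efnb1 (1.47, 2.03 and 1.83 FPKM and 4.22, 4.38 and 5.43 FPKM, 1.35 ± 0.10) and Sema3f (1.06 ± 0.10).

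Factors of the plate border and neural crest, the tissue at the edge of the neural plate, included 5 upregulated genes of 9 tested and 1 downregulated (median 1.07), but with a pseudocount of 1 FPKM in place of 0.1 none of the 5 reached a 2-fold change. Their number was 1 without the third 24 h library, 2 without the third 0 h library, 3 or 4 without any other single library, and 0 without all libraries of replicate 1 or of replicate 3. They were Sox8, Sox9, Tfap2a, Msx1 and Msx2, all below 1 FPKM in each library. Tfap2a was at 0.31, 0.347 and 0.269 FPKM and 0.667, 0.761 and 0.996 FPKM (1.14 ± 0.18). Msx1 had an adjusted p of 0.0158, and 0.0794 without the block. Ets1 rose by 0.94 ± 0.079. Foxd3, which is on this list and is also a pluripotency factor, was downregulated, with 10.5, 8.75 and 6.63 FPKM and 4.13, 2.97 and 3.97 FPKM (-1.19 ± 0.14).

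Trophectoderm genes, those of the outer layer of the blastocyst, had 6 upregulated members of 15 tested, 9 that rose and 1 that fell (median 0.76). Hand1 (chr11:57828705-57832818), a bHLH factor of trophoblast and heart that pairs with E proteins, was at 1.3, 1.56 and 0.806 FPKM at 0 h and 12.5, 11.2 and 11.1 FPKM at 24 h (3.19 ± 0.14, adjusted p = 6.71e-05). Cdx2, which specifies this layer, was at 0.241, 0.516 and 0.671 FPKM and 2.82, 3.33 and 4.17 FPKM (2.68 ± 0.16). Gata2 was at 0.117, 0.139 and 0.0596 FPKM and 0.729, 0.682 and 0.809 FPKM (2.05 ± 0.21), Gcm1 had a log2 fold-change of 1.44 ± 0.16 and Esx1 of 1.53 ± 0.15. The keratin Krt8 was at 162, 190.0 and 174 FPKM and 346, 406 and 476 FPKM (1.21 ± 0.07), and its partner Krt18 rose by 0.76 ± 0.052. The 17 genes of the list summed to 381 to 449 FPKM at 0 h and 680 to 901 FPKM at 24 h, mostly through these keratins. Tead4, which acts before Cdx2 in the embryo, fell by 0.53 ± 0.12 and Krt7 did not pass (adjusted p = 0.0783), while Elf5 stayed below the level tested. Of 12 tested mesendoderm factors 2 were upregulated, Lhx1 and Gsc (Gsc 1.38 ± 0.39, adjusted p = 0.0416 and 0.0508 without the block), with 0 to 2 of the list upregulated when libraries were left out, while T, a mesoderm factor, fell by 0.90 ± 0.16 (adjusted p = 0.00713, and 0.217 without the block), and the sum of the list was 4.27 to 5.03 FPKM at 0 h and 4.16 to 4.86 FPKM at 24 h. Of 39 Hox genes, 5 were expressed at the level tested and none of these passed.

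**Figure D4:**
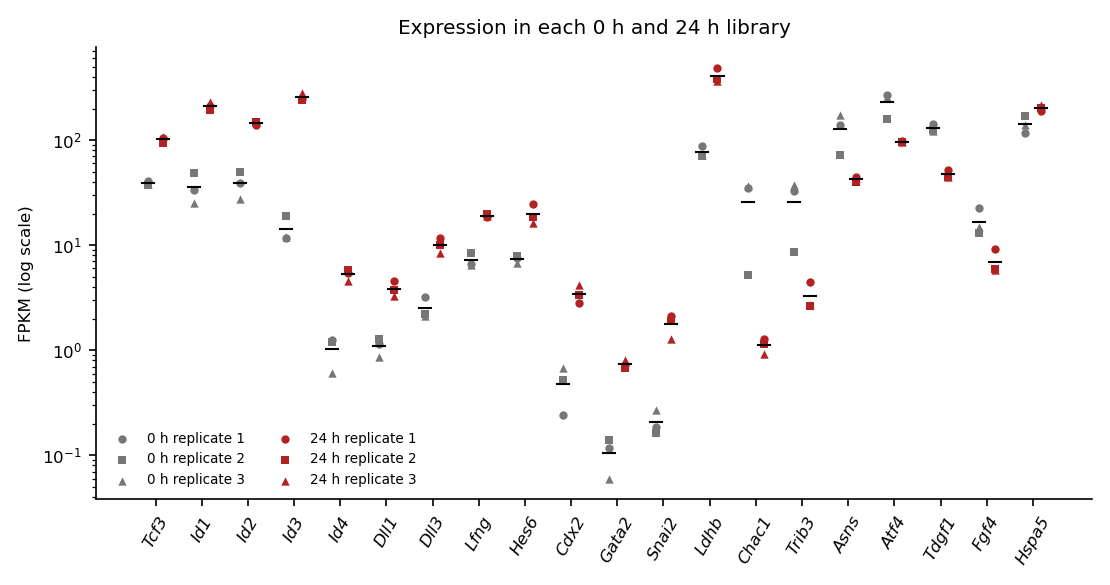
Points are the FPKM of 20 genes in each 0 h (grey) and 24 h (red) library on a log axis, with the symbol giving the replicate and the black bars the group means. For the Id genes the groups are far apart, and for Chac1, Trib3 and Asns the square of the second 0 h replicate lies below the other 0 h replicates.

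Repressors that drive epithelial to mesenchymal transition were upregulated, while the main epithelial cadherin did not pass the test. Of 10 tested members of the first list 4 were upregulated, 6 rose and 1 fell (median 0.55). The upregulated ones were the repressors Snai2 (0.186, 0.164 and 0.272 FPKM and 2.13, 1.91 and 1.27 FPKM, 2.59 ± 0.22), Snai1 (2.15, 2.39 and 1.9 FPKM and 5.05, 4.35 and 5.19 FPKM, 1.15 ± 0.11), Zeb2 (1.25 ± 0.15) and Zeb1 (1.09 ± 0.17). Cdh1, encoding E-cadherin, was at 214, 228 and 244 FPKM and 227, 251 and 245 FPKM (0.07 ± 0.038, adjusted p = 0.199). P-cadherin, encoded by Cdh3, was at 17.9, 14.2 and 14.9 FPKM and 63.3, 51.9 and 48.4 FPKM (1.79 ± 0.049, adjusted p = 8.45e-06), and Cdh11 at 0.0895, 0.158 and 0.229 FPKM and 1.2, 1.32 and 1.09 FPKM (2.37 ± 0.22), although other annotated genes overlap Cdh11. Cdh6 was upregulated by 1.28 ± 0.20, and N-cadherin, encoded by Cdh2, rose by 0.30 (adjusted p = 0.0405, and 0.27 without the block). Of 18 tight junction genes 2 were upregulated, Cldn5 and Cldn1. Cldn5, a claudin best known in endothelium, was at 0.208, 0.471 and 0.195 FPKM and 8.77, 7.34 and 5.74 FPKM (4.29 ± 0.26). Ocln fell by 0.59 ± 0.11 and the epithelial marker Epcam by 0.29 ± 0.059. Of 23 collagens, laminins and integrins 1 was upregulated, Itga9 (1.13, 0.97 and 1.39 FPKM and 3.01, 3.85 and 4.15 FPKM, 1.58 ± 0.13), and 10 rose in all and 2 fell (median 0.24), with 4 rising and 2 falling without the block.

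Naive pluripotency factors changed in both directions. Of 19 tested, none was called at 2-fold, 4 rose, 7 fell and 8 did not pass (median -0.28), and without the replicate block 3 rose and 2 fell. Those that rose were Nanog (45.1, 34.5 and 42.1 FPKM and 78.8, 64.1 and 77.4 FPKM, 0.86 ± 0.04), Dppa3 (43.8, 27.9 and 36.5 FPKM and 93.5, 52.5 and 70.6 FPKM, 0.98 ± 0.063), Socs3 (0.58 ± 0.042) and Klf4 (0.38 ± 0.073, adjusted p = 0.297 without the block). Pou5f1 fell by 0.58 ± 0.035, and Klf5 by 0.81 ± 0.13 from 28.6, 16.8 and 23.9 FPKM to 14.2, 11.7 and 12.5 FPKM. Klf2, Tfcp2l1, Nr0b1, Stat3 and Lifr fell by 0.55, 0.56, 0.65, 0.28 and 0.46, none of them past the test without the block. Esrrb, Sox2 and Zfp42 had log2 fold-changes of 0.08, -0.02 and -0.08 and did not pass, and the sign of each turned under another scaling or without the second 0 h replicate. Dppa5a, a marker of the naive state, was at 1069, 623 and 641 FPKM and 905, 460.0 and 500.0 FPKM, so the groups overlapped while each 24 h library was lower than the 0 h library of its own number (-0.34 ± 0.048, adjusted p = 0.00338, and 0.537 without the block). Dnmt3l, a partner of the de novo DNA methyltransferases, was downregulated, with 104, 75.8 and 69.6 FPKM and 53.1, 35.8 and 31.4 FPKM (-1.07 ± 0.04). Among 18 DNA methylation and Polycomb genes it was the 1 called at 2-fold, while 8 fell at any fold (4 without the block, and 3 to 8 when libraries were left out), among them Jarid2 (-0.66 ± 0.043) and Cbx7 (-0.60 ± 0.066).

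Genes of amino acid supply were the largest group of downregulated genes on the lists. ATF4 is a transcription factor whose translation rises when amino acids are short or the endoplasmic reticulum (ER) is stressed, and it turns on genes for amino acid synthesis, amino acid uptake and tRNA charging. Of 28 tested members of this list, 17 were downregulated, 23 fell and 1 rose (median -1.25). The medians of replicates 1, 2 and 3 taken as pairs were -1.43, -0.63 and -1.70. Chac1 (chr2:119351229-119354381), a glutathione-degrading enzyme, was at 35.4, 5.17 and 36.7 FPKM at 0 h and 1.27, 1.15 and 0.92 FPKM at 24 h (-3.98 ± 0.59, adjusted p = 0.00423). Trib3, a pseudokinase that restrains ATF4, was at 32.5, 8.59 and 37.1 FPKM and 4.48, 2.62 and 2.71 FPKM (-2.74 ± 0.39). Asns, which makes asparagine, was at 138, 72.5 and 172 FPKM and 44.3, 39.9 and 43.5 FPKM (-1.49 ± 0.20). Atf4 itself was at 267, 160.0 and 258 FPKM and 98.3, 95.1 and 95.2 FPKM (-1.21 ± 0.15). For these genes the second 0 h library was the lowest at 0 h but still above each 24 h library. Without it the log2 fold-changes were -4.92 for Chac1, -3.32 for Trib3, -1.80 for Asns and -1.45 for Atf4, and each was still downregulated. Without all libraries of replicate 1 they were -3.62, -2.70, -1.42 and -1.095. Each then missed the threshold (adjusted p = 0.0748, 0.0656, 0.062 and 0.0502). Without those of replicate 3, Chac1, Asns and Atf4 missed it (adjusted p = 0.0621, 0.0505 and 0.0564), while Trib3 passed (adjusted p = 0.0455).

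The members that fell span serine, one-carbon and proline synthesis and amino acid uptake. Serine synthesis included Psat1 (218, 131 and 262 FPKM and 81.3, 80.3 and 77.4 FPKM, -1.29 ± 0.18), Psph (-1.08 ± 0.22) and Phgdh, which fell by 0.97 ± 0.12. The one-carbon enzymes Shmt2 and Mthfd2 had log2 fold-changes of -1.22 ± 0.17 and -1.47 ± 0.21, and the proline enzyme Aldh18a1 of -1.39 ± 0.23. Amino acid transporters included Slc7a5 (164, 92.5 and 210.0 FPKM and 65.7, 60.2 and 56 FPKM, -1.28 ± 0.22), Slc6a9 (-2.39 ± 0.32) and Slc7a3, which fell by 0.69 ± 0.091. Ddit4, an inhibitor of mTOR signalling on the same list, went the other way, with 43.5, 27.4 and 52.5 FPKM and 80.4, 69.4 and 84.5 FPKM (0.97 ± 0.11). The counts depended on which libraries were used. Without the second 0 h library 22 members were downregulated and the median was -1.53. Without all libraries of replicate 1, which leaves 2 replicates a time point, 1 was downregulated and 3 fell, and without those of replicate 3, 3 were downregulated and 6 fell, with list medians of -1.20 and -0.99.

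Aminoacyl-tRNA synthetases, which load amino acids onto tRNAs, also fell. Of 21 tested, 3 were downregulated, 16 fell and none rose (median -0.34). The 3 were Cars (36.9, 20.2 and 37.6 FPKM and 12.7, 11.9 and 11 FPKM, -1.35 ± 0.19), Nars (301, 183 and 293 FPKM and 121, 120.0 and 102 FPKM, -1.15 ± 0.17) and Yars (-1.10 ± 0.14). Others fell much less, such as Kars by 0.27 ± 0.048 and Dars by 0.18 ± 0.043. Without the second 0 h library 9 were downregulated, without the second 24 h library 7, without the third 0 h library 1, and without all libraries of replicate 1 none was and 3 fell. ER chaperones, which fold secreted proteins, had the opposite sign. Of 16 tested, 13 rose by less than 2-fold and none fell (median 0.39), with 11 rising without the block, 2 without replicate 1 and 4 without replicate 3. Hspa5, the main one, was at 118, 168 and 140.0 FPKM and 191, 203 and 217 FPKM (0.53 ± 0.13, adjusted p = 0.0216). Sdf2l1 rose by 0.90 ± 0.16 and Xbp1, a transcription factor for chaperone genes, by 0.71 ± 0.11. Herpud1, of ER degradation, was at 19.7, 9.14 and 26.5 FPKM and 6.65, 8.4 and 7.13 FPKM and missed the threshold (-1.19 ± 0.37, adjusted p = 0.0554). Without the low second 0 h library its log2 fold-change was -1.77 and it passed (adjusted p = 0.00163). Without any other single library it did not pass (adjusted p = 0.0881 to 0.182), nor without all libraries of replicate 1 or 3 (adjusted p = 0.292 and 0.265).

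The word TGATGNAA, the core of the composite site that ATF4 is known to bind with a C/EBP factor, was looked for on both strands of the same promoters. It was present in 2.11% of all 11145, in 12 of 108 downregulated genes (11.1%) and in 4 of 258 upregulated genes (1.55%). In the ATF4 list 6 of 24 matched promoters held it (25%), those of Trib3, Chac1, Asns, Pycr1, Nupr1 and Fgf21, and in the synthetases 5 of 13 (38.5%), those of Aars, Gars, Iars, Tars and Yars. As the ATF4 list was drawn from knowledge of ATF4 targets, its share is a property of the list, whereas the synthetases were listed by function. Log2 fold-changes of the 5 synthetases with the word ran from -1.10 (Yars) to -0.77 (Iars). Those of the matched synthetases without it ran from -0.34 (Eprs) to 0.12 (Farsa), except Sars at -0.97. A link between the word and the change was not tested. The stretches of Chac1 (chr2:119351029-119351076, plus strand, word 193 bases before the start) and Pycr1 (chr11:120643824-120643871, minus strand, 103 bases before the start) are shown with the word in capitals, for 2 downregulated genes that carry it outside annotated exons. Pycr1 was at 11.9, 4.51 and 12.5 FPKM and 4.67, 3.57 and 4.1 FPKM (-1.08 ± 0.21, adjusted p = 0.0116, and 0.0798 without the block).
Chac1: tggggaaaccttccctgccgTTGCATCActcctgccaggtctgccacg
Pycr1: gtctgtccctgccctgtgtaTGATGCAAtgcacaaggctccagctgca

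In the lists of ribosomal, respiratory and glycolysis genes no member was called at 2-fold. Of 56 ribosomal protein genes none was called at 2-fold, none rose and 28 fell, with a median of -0.13 and log2 fold-changes from -0.29 to -0.02. The median was 0.0005 after quantile normalization, so its sign rests on the scaling. The number falling was 0 without the replicate block, 0 after quantile normalization, 12 after scaling to total reads and 38 with edgeR on reads. Rplp0 was at 1272, 1243 and 1243 FPKM and 1196, 1044 and 1051 FPKM (-0.19 ± 0.045, adjusted p = 0.0211 and 0.14 without the block). Of 25 nuclear respiratory chain genes 11 fell and none rose (median -0.12), with 2 falling without the block. Of 11 tested protein-coding genes of the mitochondrial genome 4 fell (median -0.36), with 1 falling without the block and 0 to 3 when libraries were left out, and pair medians of -0.10, -0.68 and -0.27. Among them was mt-Nd5, at 538, 583 and 519 FPKM and 453, 353 and 404 FPKM (-0.44 ± 0.09). In the glycolysis list 3 of 18 rose and 5 fell (median -0.17), with 1 falling without the block. The glucose transporters Slc2a1 (170.0, 201 and 203 FPKM and 384, 350.0 and 392 FPKM, 0.97 ± 0.08) and Slc2a3 (0.78 ± 0.052) rose, while Pgk1 fell by 0.30 (adjusted p = 0.143 without the block) and Hk2 by 0.31. Ldhb, the lactate dehydrogenase subunit that is not on this list, was upregulated, with 88.9, 69.9 and 72.4 FPKM and 491, 379 and 366 FPKM (2.41 ± 0.044, adjusted p = 1.12e-06), whereas Ldha fell by 0.38 (adjusted p = 0.0346, and 0.228 without the block). Of 18 cholesterol synthesis genes 1 rose, 1 fell and 16 did not pass (median 0.06).

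In the cell cycle lists no gene was called at 2-fold and most did not pass at any fold. Of 20 cyclins and CDK inhibitors 3 rose, 3 fell and 14 did not pass, with 1 rising and 2 falling without the block. Ccnd1 fell by 0.76 ± 0.062, from 30.1, 31.4 and 22.9 FPKM to 18.4, 16.4 and 14.8 FPKM, Ccnb1 fell by 0.34 ± 0.043, and the inhibitor Cdkn2d rose by 0.36 ± 0.067. Of 21 DNA replication and mitosis genes 7 fell and 1 rose (median -0.11, and 0.0029 after quantile normalization). The 7 included 5 of the helicase subunits, such as Mcm7 (-0.32 ± 0.036), and the 1 that rose was Top2a (0.21 ± 0.047). In the p53 list 5 of 17 rose and 2 fell, and without the block none rose. Gdf15, also known as a stress-response gene, was downregulated (1.86, 0.472 and 1.39 FPKM and 0.34, 0.233 and 0.317 FPKM, -1.59 ± 0.41), and Bbc3 fell by 0.87 ± 0.13. The call of Gdf15 was lost without any single library other than the second at 0 h.

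Single members of other lists stood out from their list. Among 22 imprinted genes, which are expressed from a single parental allele, 1 was upregulated and 1 downregulated. Peg3 was at 10.4, 12.8 and 11.3 FPKM and 41.1, 40.1 and 40.7 FPKM (1.82 ± 0.072, adjusted p = 4.42e-05). Grb10 (chr11:11930508-12038683), an inhibitor of insulin receptor signalling, was at 19, 9.95 and 20.3 FPKM and 2.26, 2.59 and 1.94 FPKM (-2.75 ± 0.25, adjusted p = 0.000894). Its second 0 h library was the lowest at 0 h, as for the amino acid genes. Among 15 housekeeping genes Hprt (chrX:52988137-53021659) was the 1 upregulated, with 9.89, 10.8 and 13.6 FPKM and 43.6, 51.1 and 50.1 FPKM (2.08 ± 0.068, adjusted p = 2.46e-05). The cassette is inserted next to Hprt, and the part of this in its change was not tested. Actb and Gapdh had log2 fold-changes of 0.07 and -0.13 and did not pass. Of 9 tested genes that E2A is known to act on in lymphocytes, 1 was upregulated, the immunoglobulin heavy chain gene Ighm, at 0.0445, 0.0884 and 0.0732 FPKM and 2.57, 1.14 and 1.36 FPKM (3.34 ± 0.32), while Foxo1 fell by 0.36 ± 0.057.

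Ranked by fold-change alone, among called genes with a mean of at least 1 FPKM and groups that did not overlap, the 12 largest increases were those of Id3, Bmp7, Btbd17, C130021I20Rik, Snai2, Id1, Lmx1b, Cldn5, Cdx2, Hand1, Neurog3 and Mir302b. C130021I20Rik, a long transcript, was at 0.0506, 0.0302 and 0.0778 FPKM at 0 h and 1.57, 1.69 and 2.83 FPKM at 24 h (3.77 ± 0.19). Neurog3, a proneural factor, was at 0.163, 0.433 and 0.269 FPKM and 2.99, 2.01 and 2.48 FPKM (2.78 ± 0.29). Mir302b, whose gene has 74 bases of exon and lies within Larp7 on the opposite strand, was at 0.567, 0.563 and 0.622 FPKM and 2.13, 7.41 and 23.8 FPKM, a wide spread at 24 h, and is uncertain. Of the 12 largest decreases, Chac1, Grb10, Trib3 and Slc6a9 are described above. Slc7a1, a carrier of arginine and lysine, was at 12.9, 6.52 and 14.6 FPKM and 2.7, 2.65 and 2.63 FPKM (-1.97 ± 0.24, adjusted p = 0.00204), again with its lowest 0 h value in the second library (-2.34 without it). Without all libraries of replicate 3 it narrowly missed the threshold (-1.74, adjusted p = 0.0505). 9430069I07Rik, which overlaps Matn2 on the opposite strand, had a log2 fold-change of -1.99 ± 0.11. The other 6 have under 200 bases of exon and are uncertain: the mitochondrial tRNA genes mt-Tt (-4.73 ± 0.55) and mt-Tw (-2.46 ± 0.35), Mir106b inside Mcm7 (-4.52 ± 0.90), Mir24-1 (-3.46 ± 0.85), Gm23639 (-2.13 ± 0.28) and AC124457.1 inside Rpl27a (-2.02 ± 0.34).

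In amounts of RNA, the 420 upregulated genes took 0.237% to 0.275% of all FPKM at 0 h and 0.910% to 0.972% at 24 h, and the 210 downregulated genes went from 0.774% to 0.966% to 0.357% to 0.397%. The 10 largest gains in mean FPKM among genes past the test were those of Ldhb (335 FPKM), Id3 (243), Krt8 (234), Slc2a1 (184), Id1 (177), Igfbp2 (149), Tuba1a (121), Krt18 (118), Id2 (107) and Slc2a3 (97.2). Igfbp2, which binds insulin-like growth factors, was at 117, 154 and 188 FPKM and 267, 257 and 383 FPKM (0.98 ± 0.094). Tuba1a passed only with the block (adjusted p = 0.0188, and 0.0838 without it). The 10 largest losses were genes with high levels and small fold-changes, except mt-Rnr2, the large mitochondrial ribosomal RNA, at 336, 473 and 305 FPKM and 201, 160.0 and 156 FPKM (-1.09 ± 0.14). The others were mt-Co1, mt-Nd1, Rplp1, Rpl8, Rpl13a, Rplp0, Npm1, Pkm and Dppa5a, with log2 fold-changes from -0.48 to -0.18, and each missed the threshold without the block. Ranked by fold-change, the largest increases of genes with a mean of 10 to 100 FPKM over the 9 libraries were those of Btbd17 (2.32, 3.14 and 4.29 FPKM and 21.7, 18.4 and 20.8 FPKM), the sodium/iodide symporter Slc5a5 (6.5, 10.6 and 9.86 FPKM and 39.1, 47.9 and 65.4 FPKM), Hprt, Trp53i11 (2.02 ± 0.054) and the orphan receptor Gprc5c (1.94 ± 0.12).

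Silent genes were described in reads, which could be recovered from the 19210 genes of the filtered table. A gene was taken as silent at a time point when each of its 3 libraries held at most 3 reads. By this rule 919 genes were silent at 0 h, 669 at 24 h and 242 at both. Of the 919, 23 reached at least 10 reads in each 24 h library. No gene silent at 24 h had 10 reads in each 0 h library. With a floor of 10 reads and at least 30 reads as the upper mark, 15 genes went up and 2 went down, and with a floor of 0 reads the counts were 1 and 0. As the counts at both times chose these genes, the values are a description. The authors' filter also bears on them, since a gene silent at 0 h can be in the table through its 18 h and 24 h libraries. The read marks were not adjusted for depth, which was 22028363 to 24571958 reads on genes at 0 h and 24926061 to 26471569 at 24 h. Both limits favour genes that came on.

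Il9r, a cytokine receptor, went from 0, 2 and 1 to 24, 38 and 47 reads, a depth-adjusted ratio of 32.2 with a 95% interval from counting of 10.7 to 159. Ccl7, a chemokine, had 1, 1 and 0 and 25, 44 and 25 reads (ratio 27.8, interval 11.2 to 349). The growth factor Igf1 had 1, 0 and 0 and 40, 14 and 20 reads (ratio 21.9), and a transcript lies on its opposite strand. Lhx1, a homeobox factor, had 2, 2 and 1 and 24, 32 and 23 reads. The ghrelin receptor Ghsr had 3, 2 and 2 and 25, 24 and 20 reads, Nlrp5, an oocyte gene, 1, 3 and 1 and 22, 22 and 21, and the ephrin receptor Epha3 2, 2 and 2 and 23, 19 and 20. The bHLH factor Nhlh1 and the Ets factor Fev, both of neurons, were also among the 23. In the other direction the highest counts at 0 h of genes silent at 24 h were those of Gm14164 (23, 2 and 24 reads, then 3, 3 and 2), Dsg3, a desmosomal cadherin (14, 7 and 9, then 1, 3 and 2), Gm27406 (15, 9 and 4, then 2, 0 and 3, from an RNA gene of under 200 bases inside Pcbp2), Adprhl1 (12, 7 and 8, then 1, 1 and 3) and Cst13 (6, 10 and 9, then 3, 2 and 3). At such read numbers the intervals cover counting error only.

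**Figure D5:**
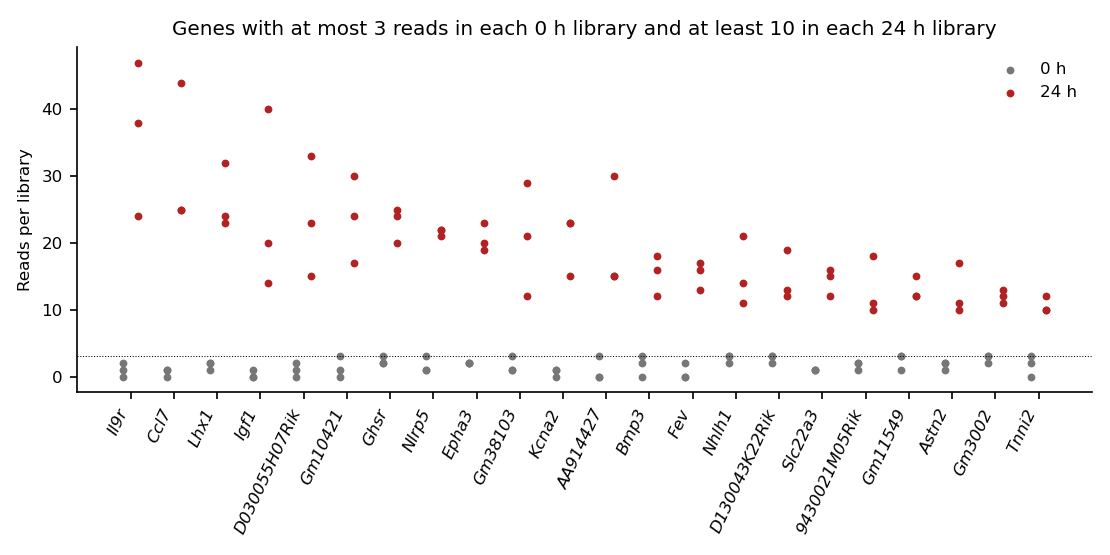
Points are the reads in each 0 h (grey) and 24 h (red) library for 22 of the 23 genes with at most 3 reads in each 0 h library and at least 10 in each 24 h library, and the dotted line marks 3 reads. Il9r and Ccl7 lie highest at 24 h, and most of the other genes stay below 35 reads.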

How the data were processed

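RNA from 3 biological replicates of mouse ESCs without dox and after 18 h or 24 h of it was sequenced by the authors (TruSeq Stranded mRNA kit, HiSeq4000), trimmed with cutadapt 1.9, aligned to GRCm38 with STAR and normalised with edgeR 3.16.5, per the study's methods and the submitters' processing notes. The counter, annotation release and strand setting are not given in the sources used here. The authors deposited FPKM for 47729 genes, and a filtered table of 19210 genes whose signal is CPM on an effective library size, from which whole reads were recovered for 100% of values (tolerance 0.001). The authors' means, log2 fold changes, p-values and FDR in that table were not used.

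The main test was limma 3.58.1 (R 4.3.3; eBayes with trend) on log2(FPKM + 0.1) over 17951 genes with a mean of at least 0.1 FPKM, all 9 libraries, with time and replicate number as terms and Benjamini-Hochberg adjustment over all genes. Adjusted p-values in the text are from this fit unless another is named. Fold changes on this scale understate the change of low genes. The block was kept because libraries of 1 number deviated together: over the 9 same-number pairs, the correlation of deviations from time-point means was 0.211 to 0.548, against -0.399 to 0.110 for 18 different-number pairs. Deviations cancel out within a time point, so positive same-number correlations push the different-number ones down. The ranges are therefore not independent.

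Named genes were Tcf3, the list members, the 12 largest and 12 lowest fold-changes of called genes at a mean of at least 1 FPKM with groups not overlapping, the 5 largest and lowest at any fold per level band from 1 FPKM up, the 10 largest gains and losses in FPKM, and, by reads, 10 silent genes that came on and 5 that went off. A few other members of these ranks are given only by name, and genes under 200 bases of exon are marked uncertain. The members and lists were chosen with earlier results of these data known. Positions are from GENCODE M21 (GRCm38), with an entry for 47310 of the genes. Promoters are from RefSeq (GRCm38.p6). Alternatives were other pseudocounts, filters, scalings, variance models, samples and minimum folds, leaving out libraries, no replicate block, and edgeR 4.0.16 and DESeq2 1.42.0 on recovered reads. Rescaling FPKM to total reads, and bands set on the 18 h libraries, were added after seeing the data. A few named genes are not reported here.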

Additional observations from a re-analysis of the deposited data

Results flagged for a closer look

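4 genes had a test of 24 h against 18 h past an adjusted p of 0.05 (limma) among all genes tested, so their values at the later time differed from those at the earlier one. All 4 are RNA genes of 65 to 136 bases of exon. Gm22935 and Gm26493 had few reads, and for Mir219b and Gm22363 reads were not available. Mir219b had a log2 fold-change of 3.08 from 18 h to 24 h (adjusted p = 0.0481), with 0 FPKM listed in each library at 0 h and 18 h and 0.605, 0.603 and 1.13 FPKM at 24 h. Gm22363 had one of 2.46 (adjusted p = 0.0481), with 0 FPKM listed in each library at 18 h, but 0.388, 0.386 and 0.426 FPKM at 0 h and 0.364, 0.363 and 0.68 FPKM at 24 h. Gm22935 had one of 2.05 (adjusted p = 0.0481), its reads numbering 3, 4 and 2 without dox, then 1, 2 and 1 at 18 h, then 8, 7 and 5. Gm26493 had one of -1.44 (adjusted p = 0.0481), its reads numbering 7, 13 and 13 without dox, then 7, 11 and 12 at 18 h, then 2, 4 and 6. None of the 63 tested genes named by rank or by reads passed at 24 h against 18 h.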

How the results depend on the processing

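Against 420 upregulated and 210 downregulated genes, a pseudocount of 1 gave 90 and 73, a mean of at least 1 FPKM 180 and 114, a minimum log2 change of 2 either way gave 72 and 26, and no minimum fold 2434 and 2243. Leaving out replicates gave 258 to 452 upregulated and 91 to 238 downregulated genes, lowest without replicate 1 (258 and 91) and replicate 3 (261 and 106). Without the replicate block 371 were upregulated and 150 downregulated, while genes past the adjusted p at any fold went from 4677 to 1171 that rose and 917 that fell. Other alternatives kept the numbers upregulated and downregulated within 1.5 times (355 to 615 up, 172 to 314 down), with edgeR highest at 615 and 314 and DESeq2 at 498 and 226. At any fold, the fit of only the 6 libraries at 0 h and 24 h moved the counts further, to 1258 that rose and 1195 that fell. Band medians moved with scaling. For 0.1 to 1 FPKM (0.04) quantile normalization gave -0.0309, edgeR 0.0932, total reads 0.0779 and left-out replicates 0.0056 to 0.0771. For 1 to 10 FPKM (0.06) the values were 0.0065 (quantile), 0.0438 (pseudocount 1), 0.0398 (median centring), 0.051 (edgeR), 0.044 (DESeq2), 0.1099 (total reads) and 0.0521 to 0.066 (left-out replicates). For 10 to 100 FPKM (-0.05) they were 0.0014 (quantile) and 0.0063 (total reads), and for 100 FPKM or more (-0.12) -0.0007 (quantile). List medians changed sign between scalings for ribosomal proteins, DNA replication, neuronal channels, housekeeping and imprinted genes. The direction of single genes reversed for Npm1 (quantile 0.0321), Sox2 (quantile 0.1055, total reads 0.0365), Zfp42 (quantile 0.0389) and Esrrb (-0.0758 to 0.1721 over left-out replicates). Of the checks on 209 genes, 3975 kept direction and side of the threshold, 522 lost the call, 27 gained it and 6 reversed, and 36 genes lost it without the replicate block. The cause was not tested. Genes below 1 FPKM rest on few reads, which limits the lowest band.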

Other observations

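Short RNA genes were measured by a kit that selects polyadenylated RNA, and they are included in the counts of genes and bands above. The counts of each class below are to be read beside 2.34% upregulated and 1.17% downregulated among all genes tested. Of 862 tested genes with under 200 bases of exon, 34 were upregulated and 42 downregulated. Among 336 microRNA genes 16 were upregulated and 12 downregulated. Of 211 small nucleolar RNA genes, which guide the modification of ribosomal RNA, 3 were upregulated and 20 downregulated, with a median log2 fold-change of -0.30. The 14 mitochondrial tRNA genes had 5 downregulated members, none upregulated, and a median of -1.05. Snord100, which lies inside Rps12, was at 55.5, 51.2 and 44.7 FPKM at 0 h and 12.2, 16.4 and 17.4 FPKM at 24 h (-1.72 ± 0.20, adjusted p = 0.00166 by limma), and the mitochondrial gene mt-Tl1 was at 53.7, 63.9 and 54.6 FPKM and 22.6, 9.93 and 16.2 FPKM (-1.89 ± 0.24). Of 1158 tested long non-coding genes 30 were upregulated and 17 downregulated, which is near the shares of all genes tested. Of 1388 processed pseudogenes, whose reads can come from their parent genes, 11 were upregulated and 20 downregulated.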
